A study of Mus musculus with 18 samples.

Results

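Cad, Dhodh, Umps, Ctps2, Uck2, Tyms, Dctd and Tk1 encode 8 enzymes that make or recycle pyrimidine nucleotides, and they were chosen by name as 8 of the 57180 genes in the expression table. Each name belonged to a single gene, and all 8 passed the filter on low counts, with between 300 and 12528 counts in a library. A pyrimidine ring is built from aspartate and carbamoyl phosphate: the trifunctional protein encoded by Cad makes dihydroorotate, the mitochondrial enzyme Dhodh oxidizes it to orotate, and Umps converts orotate to UMP. CTP synthases (Ctps and Ctps2) then aminate UTP, thymidylate synthase (Tyms) methylates dUMP, and dCMP deaminase (Dctd) supplies that dUMP. Salvage enzymes bypass the ring-building steps, with Uck2 phosphorylating uridine and cytidine and Tk1 phosphorylating thymidine, and Tk1, like Tyms, is known for high expression in S phase.

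The genes were followed in L929 cells, an established mouse fibroblast line with wild-type genotype, in 6 groups of 3 RNA-seq libraries. Mock cells received DMSO, AOA cells received 0.5 mM aminooxyacetic acid, a broad inhibitor of transaminases (among them the enzymes that make aspartate from oxaloacetate), and AOA+Asp cells received AOA together with 20 mM aspartate. HT-DNA, HT-DNA+AOA and HT-DNA+AOA+Asp cells were in addition transfected for 6 hours with 0.5 µg/ml herring testis DNA, a ligand of the cytosolic DNA sensor cGAS, after 1 hour of AOA pretreatment where AOA was given. The 3 libraries of a group came from independent cultures, and no group received aspartate without AOA. The series used 1 cell line, and the labels describe no control given the transfection reagent alone, so that effects of HT-DNA and of the reagent cannot be told apart.

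The libraries held between 17901546 and 24057284 counts. Of 10 fibroblast markers, 9 averaged 1 CPM or more in every group (CPM being counts scaled to the library total, here after TMM adjustment of that total), while Thy1 stayed at or under 0.169 CPM. Of 8 markers of other cell types, Ptprc, Cd3e and Adgre1 were at 0 in all 18 libraries and only Cd68, which is not restricted to macrophages, was above 1 CPM. The treatments were visible in their readouts. The interferon-stimulated chemokine Cxcl10 averaged 0.0917 CPM in Mock, 30.9 CPM with HT-DNA and 266 CPM with HT-DNA+AOA, and the stress-response factor Ddit3 averaged 46.2 CPM in Mock and 369 CPM with AOA. The 3 HT-DNA+AOA libraries differed from each other more than those of any other group, with a chi-square per degree of freedom over genes of 60.8 between replicates 1 and 3, against at most 12.1 within the other 5 groups, and the values of the 8 genes are given for each of these libraries below. Dividing by library totals in place of TMM moved the median log2 fold change of all genes to -0.12 for AOA against Mock and for HT-DNA against Mock.

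Sequence upstream of the start was taken from RefSeq (GRCm38.p6), which listed a promoter for 7 of the 8 genes. The 250 bases before the start are shown for Umps and Cad, whose transcripts rose together with AOA, and for Tk1, whose transcript fell, with GC boxes (GGGCGG on either strand) in capitals.
Cad, chr5:31054530-31054779, plus strand: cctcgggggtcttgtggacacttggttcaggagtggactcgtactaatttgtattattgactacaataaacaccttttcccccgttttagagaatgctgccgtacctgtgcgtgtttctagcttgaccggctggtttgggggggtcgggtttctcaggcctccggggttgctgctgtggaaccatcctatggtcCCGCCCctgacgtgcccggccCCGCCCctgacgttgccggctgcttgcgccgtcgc
Umps, chr16:33967039-33967288, minus strand: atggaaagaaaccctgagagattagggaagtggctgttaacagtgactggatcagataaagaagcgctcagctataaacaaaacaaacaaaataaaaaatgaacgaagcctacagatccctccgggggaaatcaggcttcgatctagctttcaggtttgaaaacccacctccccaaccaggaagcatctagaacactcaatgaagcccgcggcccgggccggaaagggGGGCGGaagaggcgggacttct
Tk1, chr11:117826015-117826264, minus strand: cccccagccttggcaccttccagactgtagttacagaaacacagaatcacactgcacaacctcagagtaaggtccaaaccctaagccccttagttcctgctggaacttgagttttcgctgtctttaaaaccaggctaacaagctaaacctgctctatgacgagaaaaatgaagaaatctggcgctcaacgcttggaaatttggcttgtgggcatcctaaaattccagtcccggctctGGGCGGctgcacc
Cad carried GC boxes at -56 to -51 and -35 to -30 from the start, Umps carried 1 at -22 to -17 and Tk1 1 at -13 to -8. The GC box is a common element that was present in 32.7% of 32851 promoter windows of this length, and it was found upstream of both the genes that rose and the gene that fell. A CRE (TGACGTCA), an ATF4-CHOP element (TGATGNAAN) and E2F sites (TTTCGCGC, TTTGGCGC or TTTCCCGC), searched on both strands and present in 1.55%, 3.44% and 1.53% of windows, matched no window of the 7 genes. An E-box (CACGTG, in 6.02% of windows) lay upstream of Tyms, at -61 to -56, and the CCAAT box (in 33.8%) lay upstream of Dctd and Ctps2.

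Per kilobase of exon, the levels in Mock cells spanned a wide range. Length was that of all annotated exons of a gene merged, from 3409 bases (Dctd) to 8183 bases (Cad), which can exceed the expressed transcript. The order of the genes therefore depends on the annotation. By this measure Umps ranked highest of the 8 at 80.7 CPM per kb, followed by Uck2 at 49.0 and Cad at 48.0 CPM per kb. Tk1 stood at 16.5, Ctps2 at 10.6 and Tyms at 10.4 CPM per kb, and Dctd and Dhodh were lowest at 4.71 and 2.73 CPM per kb. Thus, the first and the last step of UMP synthesis were expressed far above the middle one. The same held in CPM without division by length (393 for Cad and 281 for Umps against 17.2 for Dhodh in Mock). Across the 6 groups the mean CPM of a gene moved little: the highest group exceeded the lowest 1.79-fold for Umps, 1.599-fold for Tk1, 1.54-fold for Uck2, 1.53-fold for Dhodh and 1.45-fold for Dctd, and between 1.19-fold and 1.31-fold for Tyms, Ctps2 and Cad.

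**Figure D1:**
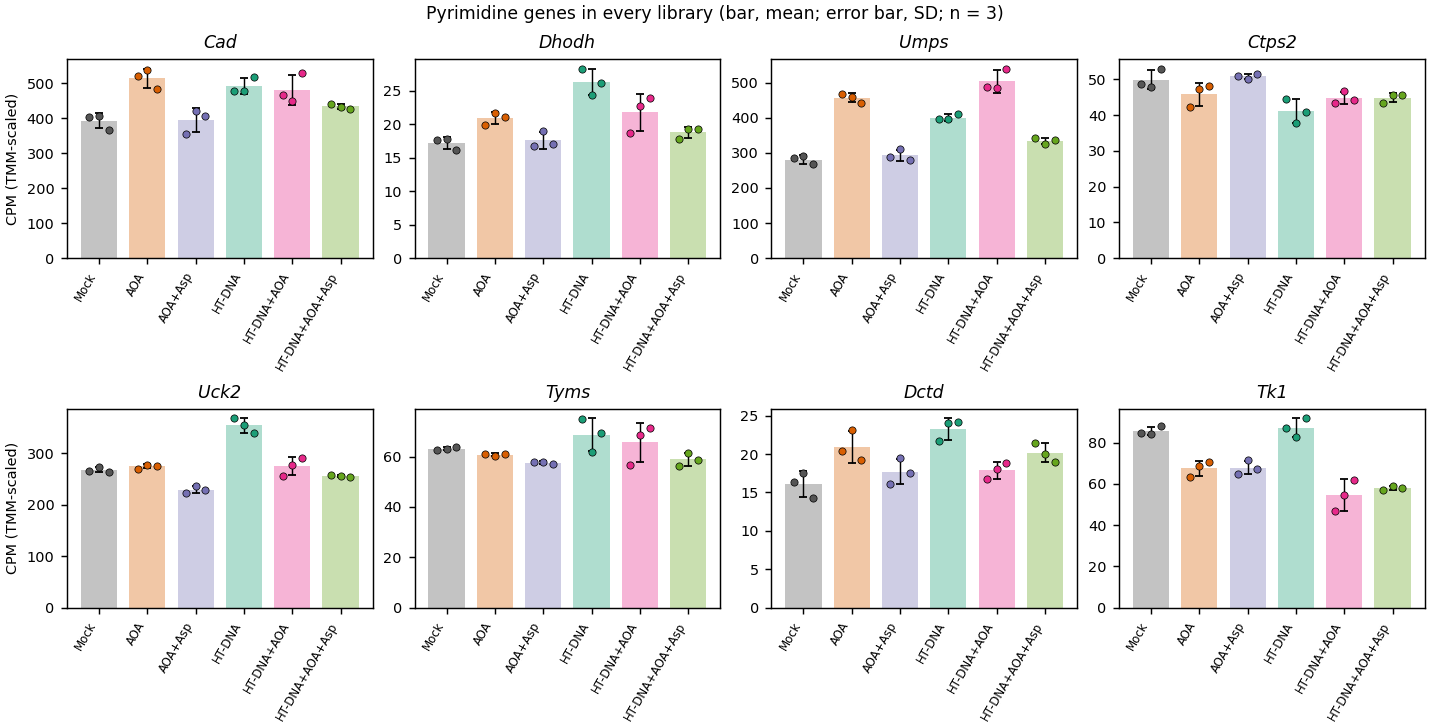
Level of each of the 8 genes in TMM-scaled CPM (vertical axis, from 0) in the 6 treatment groups (horizontal axis). Points are the 3 libraries, bars their mean and error bars the SD. Umps was highest in the AOA groups without added aspartate (means of 457 and 504 CPM) and Uck2 in HT-DNA (355 CPM), while Tk1 was low in all 4 groups that received AOA.

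AOA raised all 3 genes of UMP synthesis, and all 3 were lower again with added aspartate. Umps, the bifunctional enzyme of the last steps, was at 286, 290 and 267 CPM in the Mock libraries, at 468, 460 and 443 CPM with AOA, and at 289, 311 and 281 CPM with AOA+Asp. The AOA libraries lay above all others without HT-DNA, and those with aspartate overlapped Mock. Umps rose by 0.70 ± 0.06 on the log2 scale (SE) with AOA (1.63-fold, adjusted p = 5.77e-08) and was 0.64 lower on that scale with aspartate than with AOA alone (log2 fold change -0.64 ± 0.06, adjusted p = 2.38e-07). The remaining difference from Mock was 0.06 ± 0.06 (adjusted p = 0.618).

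Cad, which starts the pathway and consumes the aspartate, followed the same order at a smaller size. Its libraries were at 405, 405 and 368 CPM in Mock, 522, 538 and 484 CPM with AOA, and 357, 421 and 408 CPM with AOA+Asp. Every AOA library was above every library of the other 2 groups. The log2 fold change was 0.39 ± 0.08 for AOA against Mock (1.31-fold, adjusted p = 0.000400) and -0.38 ± 0.08 for AOA+Asp against AOA (adjusted p = 0.000512), leaving 0.01 ± 0.08 against Mock (adjusted p = 0.972).

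Dhodh, the mitochondrial dehydrogenase in between, was scarce and moved least. It was at 17.7, 17.8 and 16.2 CPM in Mock, 19.9, 21.7 and 21.2 CPM with AOA and 16.7, 19.0 and 17.1 CPM with AOA+Asp, so that AOA libraries were again the highest. Its log2 fold change was 0.28 ± 0.09 with AOA (adjusted p = 0.0202) and -0.25 ± 0.09 with aspartate against AOA alone (adjusted p = 0.0346). Both calls were fragile. The first was lost without Mock replicate 3 or AOA replicate 2 or 3, with log2 fold changes of 0.24 to 0.27, and with library totals (0.15), and the second without AOA replicate 2 or 3 or AOA+Asp replicate 1 or 3, with -0.24 to -0.22.

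For CTP synthesis, the isozymes differed in what was called. Ctps2 was at 48.8, 47.9 and 53.0 CPM in Mock, 42.2, 47.3 and 48.1 CPM with AOA and 50.9, 50.01 and 51.5 CPM with AOA+Asp, and neither treatment passed the test, with log2 fold changes of -0.12 ± 0.07 (adjusted p = 0.188) and 0.15 ± 0.07 (adjusted p = 0.109). The other isozyme, Ctps, was at 156, 162 and 151 CPM in Mock, 216, 218 and 195 CPM with AOA, and 166, 160 and 154 CPM with AOA+Asp. Ctps rose with AOA by 0.42 ± 0.06 on the log2 scale (adjusted p = 2.39e-05) and was lower again with aspartate (-0.39 ± 0.06, adjusted p = 5.78e-05). Its pattern thus resembled that of Cad in direction, although 7.31% of the 31-base words in its exons also occur in other genes, and the difference between the isozymes was not tested.

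The salvage kinase Uck2 did not pass the test with AOA but fell when aspartate was added. Its libraries were at 266, 273 and 265 CPM in Mock, 271, 278 and 276 CPM with AOA, and 224, 236 and 229 CPM with AOA+Asp. The AOA+Asp libraries were below all of Mock and all of AOA. The log2 fold changes were 0.04 ± 0.06 for AOA against Mock (adjusted p = 0.635), -0.26 ± 0.06 for AOA+Asp against AOA (adjusted p = 0.00132) and -0.22 ± 0.06 for AOA+Asp against Mock (adjusted p = 0.0258). The last call was lost in 5 of 6 fits that left out 1 library, those without Mock replicate 1, 2 or 3 or AOA+Asp replicate 1 or 3, with log2 fold changes between -0.24 and -0.20 over the 6 fits and adjusted p up to 0.120.

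Upp1, which cleaves uridine to uracil and so opposes uridine salvage, showed the same order. It was at 14.7, 15.5 and 14.0 CPM in Mock, 15.5, 14.9 and 15.1 CPM with AOA, and 9.70, 12.4 and 10.1 CPM with AOA+Asp, and Upp1 was lower in AOA+Asp than in AOA (log2 fold change -0.50 ± 0.14, adjusted p = 0.00578) and than in Mock (-0.46 ± 0.14, adjusted p = 0.0486). Uprt, named for uracil salvage, was low (9.36 ± 1.19 CPM in Mock, 11.2 ± 0.94 with AOA and 9.65 ± 0.92 with AOA+Asp, SD, n = 3) and passed the test in none of these 3 comparisons.

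Among the enzymes that feed thymidylate, Dctd rose with AOA and Tyms did not. Dctd was at 16.3, 17.6 and 14.2 CPM in Mock, 20.4, 23.2 and 19.2 CPM with AOA, and 16.1, 19.4 and 17.5 CPM with AOA+Asp. Its AOA libraries were above all of Mock but overlapped AOA+Asp at the edge. The log2 fold change was 0.38 ± 0.10 for AOA against Mock (adjusted p = 0.00389) and -0.25 ± 0.10 for AOA+Asp against AOA, with an adjusted p of 0.0496 that was lost without AOA replicate 1 or 2 or AOA+Asp replicate 1 or 3 (log2 fold changes of -0.27 to -0.16). Tyms kept within a narrow band, at 62.5, 63.0 and 63.7 CPM in Mock, 61.1, 60.3 and 61.1 CPM with AOA and 57.9, 57.8 and 56.9 CPM with AOA+Asp. The Tyms groups did not overlap, yet none of the 3 differences passed the test (log2 fold changes of -0.05 ± 0.08, -0.08 ± 0.08 and -0.13 ± 0.08, with adjusted p of 0.622, 0.445 and 0.371), and 9.82% of the 31-base words of Tyms are shared, mostly with the pseudogene Tyms-ps.

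Tk1 fell with AOA and stayed low when aspartate was added. The thymidine kinase was at 84.7, 84.4 and 87.9 CPM in Mock, 63.3, 68.8 and 70.5 CPM with AOA, and 65.0, 71.4 and 67.4 CPM with AOA+Asp. Both AOA groups lay below every Mock library and overlapped each other. Tk1 fell by 0.34 ± 0.08 on the log2 scale with AOA (adjusted p = 0.00214), did not pass the test between AOA+Asp and AOA (log2 fold change 0.01 ± 0.08, adjusted p = 0.947) and was lower in AOA+Asp than in Mock (-0.33 ± 0.08, adjusted p = 0.0179). Without Mock replicate 1, 2 or 3 or AOA+Asp replicate 1 or 3, the last value missed the threshold at log2 fold changes between -0.35 and -0.30. Exons on the opposite strand overlap those of Tk1 over 83 bases (Afmid), of Uck2 over 150 bases (Gm2453) and of Umps over 213 bases (Gm15829), and whether counting used strand is not given in the sources used here.

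Rrm2, the S-phase subunit of ribonucleotide reductase, which provides all deoxynucleotides, ran parallel to Tk1. It was at 430, 464 and 403 CPM in Mock, 369, 343 and 314 CPM with AOA and 334, 354 and 298 CPM with AOA+Asp. The log2 fold changes of Rrm2 were -0.34 ± 0.08 for AOA against Mock (adjusted p = 0.00170), -0.06 ± 0.08 for AOA+Asp against AOA (adjusted p = 0.572) and -0.39 ± 0.08 for AOA+Asp against Mock (adjusted p = 0.00438). As for Tk1, the groups with AOA lay below Mock with or without aspartate, although 12% of the 31-base words of Rrm2 are shared with other genes.

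Genes of S phase and the cell cycle moved beside Tk1 with AOA. Of 20 such genes, 15 were lower and 1 was higher with AOA than in Mock, where 23.3% of all genes were lower and 22.4% higher. The count of 16 called was 12 to 13 in the 6 fits that left out 1 library. The summed level of the 20 genes was between 2285 and 2327 CPM in the AOA libraries against 2848 to 2937 CPM in Mock. With AOA+Asp the sum was 2843 to 2969 CPM, which overlapped Mock. By edgeR's quasi-likelihood test 1 of 20 (Ccne1, cyclin E1) was lower and none higher, where 6.47% of all genes were called, 3.95% lower. That count was 0 to 1 in the fits that left out 1 library. The sum did not speak for each gene: 8 of the 20 did not overlap between AOA+Asp and Mock (32.7% of all genes), named here after their values were seen, with Mcm2, Mcm5, Mcm7, Ccne1, E2f1 and Cdk1 below Mock and Pcna and Top2a above. Mcm2, a subunit of the replicative helicase, was at 141 to 160 CPM against 169 to 180 CPM (log2 fold change -0.22 ± 0.09, adjusted p = 0.147), and Top2a, the mitotic topoisomerase, was at 447 to 496 CPM against 419 to 426 CPM (0.15 ± 0.13, adjusted p = 0.562). Whether Tk1 differed from these genes was not tested. In bulk RNA a smaller share of cells in S phase and less RNA per cell cannot be told apart, and the part of the cell cycle genes in the Tk1 result was not tested.

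Counted over the 8 genes, AOA against Mock called 5 (Cad, Dhodh, Umps and Dctd higher, Tk1 lower), where 45.7% of the 14263 genes tested were called, 22.4% higher and 23.3% lower. AOA+Asp against AOA called 5, all lower (Cad, Dhodh, Umps, Uck2 and Dctd), against 46.3% of all genes in either direction and 22.8% lower. AOA+Asp against Mock called 2 (Uck2 and Tk1, both lower) against 6.47% of all genes, 3.95% lower. Libraries of the groups did not overlap for 6, 6 and 3 of the 8 genes in these comparisons, and for 59.4%, 56.8% and 32.7% of all genes. The share of the 8 genes called by AOA therefore lay near that of all genes, and what set the members apart from each other was direction and size. The median log2 fold change of the 8 was 0.16, -0.25 and 0.02 in these comparisons, against 0.01, -0.01 and 0.01 for all genes tested. AOA libraries enter the first 2 comparisons and Mock libraries the first and the third, so that these values are not independent of each other.

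**Figure D2:**
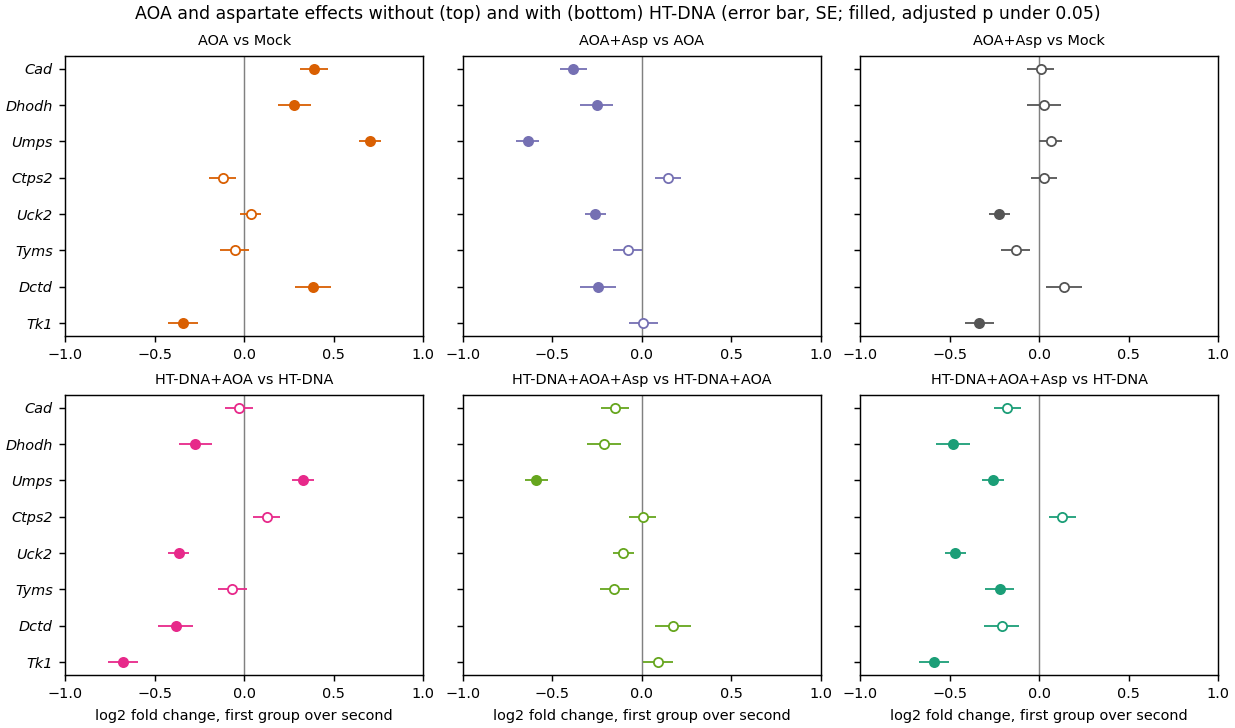
Log2 fold change (horizontal axis, first group over second) of the 8 genes (vertical axis) for AOA, aspartate and both, without HT-DNA (top row) and with HT-DNA (bottom row). Points are edgeR estimates, error bars the SE, and filled points have an adjusted p under 0.05. Umps was highest among the 8 for AOA in both rows (0.70 and 0.33) and lowest for aspartate (-0.64 and -0.59), and Tk1 was lowest for AOA in both rows (-0.34 and -0.68).

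HT-DNA alone raised the de novo genes as well, with 5 of the 8 higher and 1 lower against Mock, where 48.2% of all genes were called, 24.2% higher and 24% lower. Dhodh rose most, from its Mock level to 28.4, 24.4 and 26.2 CPM (log2 fold change 0.61 ± 0.09, adjusted p = 6.08e-05). Umps reached 396, 396 and 411 CPM (0.51 ± 0.06, adjusted p = 7.63e-06). Cad reached 479, 479 and 517 CPM (0.32 ± 0.08, adjusted p = 0.00215). All 3 were above every Mock library, and groups without overlap were seen for 6 of the 8 genes and 61.3% of all genes.

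The salvage kinase Uck2 had its highest level here, at 368, 355 and 340 CPM (log2 fold change 0.40 ± 0.06, adjusted p = 3.65e-05). Dctd was at 21.7, 24.02 and 24.2 CPM (0.54 ± 0.10, adjusted p = 0.000310). Ctps2 fell, to 44.5, 37.8 and 40.8 CPM (-0.28 ± 0.07, adjusted p = 0.00433), all below Mock. This call for Ctps2 was lost on correcting for GC content and gene length (log2 fold change -0.04), a correction under which Tyms was instead called higher (0.37).

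Tyms and Tk1 did not pass the test with HT-DNA alone. Tyms was at 74.9, 61.9 and 69.4 CPM (log2 fold change 0.12 ± 0.08, adjusted p = 0.217) and Tk1 at 87.4, 82.7 and 91.9 CPM (0.03 ± 0.08, adjusted p = 0.796), both overlapping Mock. Rrm2 did rise, to 624, 702 and 619 CPM (0.59 ± 0.08, adjusted p = 1.76e-05). The summed level of the 20 cell cycle genes was 3006 to 3130 CPM, above the 2848 to 2937 CPM of Mock. Of the 20, 11 were higher and 2 lower, where 24.2% of all genes were higher and 24% lower. Upp1 rose to 24.5, 21.0 and 23.5 CPM (0.64 ± 0.13, adjusted p = 0.000662) and Uprt fell to 3.79, 5.78 and 4.41 CPM (-1.004 ± 0.17, adjusted p = 0.000128). The mitochondrial UMP-CMP kinase Cmpk2, known as an interferon-stimulated gene, had at most 3 counts in any library and was not tested.

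In cells that already had AOA, fewer of the 8 genes passed the test for HT-DNA. With AOA, only Tk1 of the 8 passed the test (13.4% of all genes were called, 6.98% lower, and 21% did not overlap), being lower in HT-DNA+AOA, at 47.0, 54.8 and 62.1 CPM, than in AOA (log2 fold change -0.31 ± 0.08, adjusted p = 0.0181). That call was lost without AOA replicate 2 or 3 or HT-DNA+AOA replicate 2, with log2 fold changes of -0.31 to -0.28. Tyms was called as well without HT-DNA+AOA replicate 1 (0.20). Libraries of HT-DNA+AOA and AOA did not overlap for 3 of the 8 genes, Tk1, Umps (0.14 ± 0.06) and Dctd (-0.23 ± 0.10). All 3 had an unadjusted p under 0.05 by edgeR. With AOA and aspartate, none of the 8 passed edgeR's test, against 3.45% of all genes. Of these, Cad, Umps, Ctps2, Uck2 and Tk1 did not overlap between the groups with and without HT-DNA, a separation seen in 28.5% of all genes, Umps, Ctps2, Uck2 and Tk1 had an unadjusted p under 0.05, and DESeq2 called 2, Umps (0.19) and Uck2 (0.16).

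**Figure D3:**
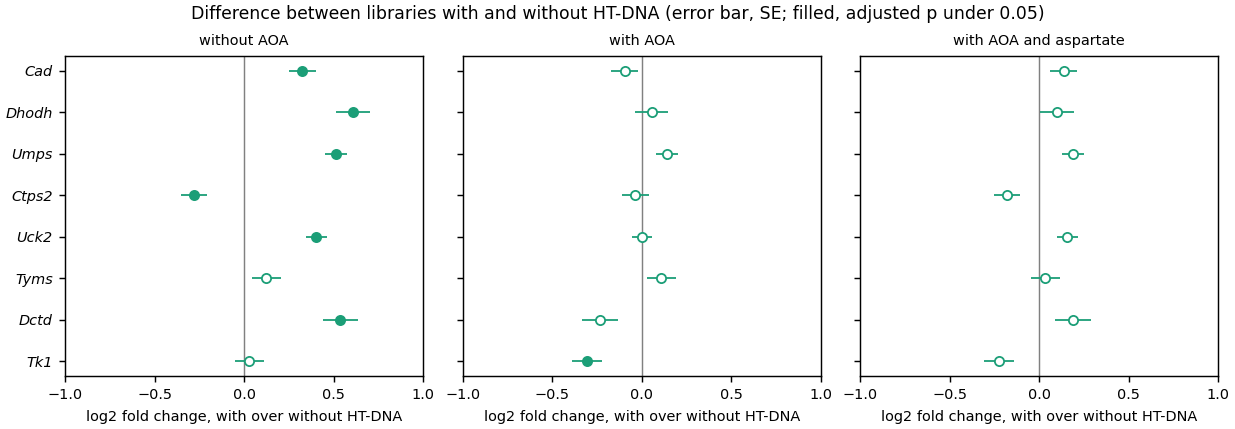
Log2 fold change between libraries with and without HT-DNA (horizontal axis) of the 8 genes (vertical axis) without AOA, with AOA, and with AOA and aspartate. Points are edgeR estimates, error bars the SE, and filled points have an adjusted p under 0.05. Values for Dhodh were 0.61, 0.06 and 0.10, and those for Uck2 0.40, 0.00 and 0.16.

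The difference between these responses was tested as an interaction. The log2 fold change with HT-DNA was lower with AOA than without for Dctd (interaction of -0.77 ± 0.14 on the log2 scale, adjusted p = 0.00191), Dhodh (-0.55 ± 0.13, adjusted p = 0.0104), Cad (-0.42 ± 0.11, adjusted p = 0.0158), Uck2 (-0.40 ± 0.08, adjusted p = 0.00427) and Umps (-0.37 ± 0.09, adjusted p = 0.0102). These are 5 of the 8 genes, all in the lower direction, where 15.5% of all genes were called and 8.26% lower. Each kept its call in all 12 fits that left out 1 library. The estimate for HT-DNA changed sign for Dctd (0.54 without AOA, -0.23 with AOA) and Cad (0.32 and -0.09), and neither passed the test with AOA. Tk1 missed the threshold (-0.34 ± 0.12, adjusted p = 0.0567) and gained a call without AOA replicate 1 (-0.38) or HT-DNA+AOA replicate 3 (-0.44), and Ctps2 (0.25 ± 0.10, adjusted p = 0.112) and Tyms (-0.01 ± 0.11, adjusted p = 0.946) were not called. Over all genes, HT-DNA called 6879 without AOA, 1917 with AOA and 492 with AOA and aspartate. Fewer calls for HT-DNA with AOA were therefore not confined to the pyrimidine genes. AOA against Mock called 6516 genes and HT-DNA+AOA against HT-DNA 6477, while AOA+Asp against Mock called 923 and HT-DNA+AOA+Asp against HT-DNA 6649. The interaction uses the same HT-DNA libraries, so a shift of that group alone and a smaller response with AOA cannot be told apart.

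The effect of AOA within HT-DNA-treated cells followed from the same values. HT-DNA+AOA against HT-DNA called 5 of the 8 genes, 1 higher and 4 lower, and did not overlap for those 5 (of all genes 45.4% were called, 22.8% higher and 22.7% lower, and 44.8% did not overlap). Umps alone was higher, at 487, 484 and 541 CPM (log2 fold change 0.33 ± 0.06, adjusted p = 0.000250), above every HT-DNA library. Tk1 had its lowest level of all groups here and was 0.68 lower on the log2 scale (log2 fold change -0.68 ± 0.08, adjusted p = 1.85e-06). Beside it, Rrm2 was at 370, 352 and 360 CPM (-0.85 ± 0.08, adjusted p = 5.80e-08), 12 of the 20 cell cycle genes were lower and none higher, and their sum was 2255 to 2276 CPM against 3006 to 3130 CPM with HT-DNA. Their part in the Tk1 result was not tested. Uck2, at 256, 278 and 291 CPM, overlapped the AOA libraries and was below all of HT-DNA (-0.37 ± 0.06, adjusted p = 3.96e-05).

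Dctd and Dhodh, which AOA raised in cells without HT-DNA, were lower with AOA in cells with it. Dctd was at 16.7, 18.02 and 18.8 CPM (log2 fold change -0.38 ± 0.10, adjusted p = 0.00368) and Dhodh at 18.7, 22.7 and 23.9 CPM (-0.27 ± 0.09, adjusted p = 0.0213). The Dhodh call was lost without HT-DNA replicate 1 (-0.22) or HT-DNA+AOA replicate 1 (-0.17), the latter being the library with the lowest Dhodh of its group. Cad, at 468, 448 and 530 CPM, overlapped HT-DNA (-0.03 ± 0.08, adjusted p = 0.783), and so did Tyms (56.7, 68.7 and 71.5 CPM) and Ctps2 (43.3, 46.7 and 44.3 CPM).

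Adding aspartate to HT-DNA+AOA moved 1 of the 8 genes past the threshold, and 3 of the 8 did not overlap. Of all genes 47.7% were called, 23.9% lower, and 48.8% did not overlap. Umps fell to 343, 326 and 336 CPM (log2 fold change -0.59 ± 0.06, adjusted p = 4.62e-07), below every library of HT-DNA+AOA and of HT-DNA. Cad was at 442, 434 and 427 CPM (-0.15 ± 0.08, adjusted p = 0.113), below the HT-DNA+AOA libraries without passing the test. Dctd, at 21.5, 20.0 and 19.0 CPM, lay above the HT-DNA+AOA libraries, also without passing the test (0.18 ± 0.10, adjusted p = 0.156). Without HT-DNA+AOA replicate 1, the count rose from 1 to 4, with Dhodh (-0.31), Uck2 (-0.15) and Tyms (-0.25) called lower, and without HT-DNA+AOA replicate 3 it was 2, with Tk1 called higher (0.19). The interaction of aspartate with HT-DNA called none of the 8 by edgeR (1.05% of all genes). DESeq2 also called none, and edgeR's unadjusted p was under 0.05 for 2, Cad (0.23 ± 0.11) and Dctd (0.42 ± 0.14).

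Against HT-DNA alone, HT-DNA+AOA+Asp left 5 of the 8 genes lower (46.6% of all genes were called, 23.5% lower). These were Tk1, at 57.1, 58.9 and 58.3 CPM (log2 fold change -0.59 ± 0.08, adjusted p = 4.21e-05), Dhodh, at 17.9, 19.2 and 19.3 CPM (-0.48 ± 0.09, adjusted p = 0.000550), Uck2, at 258, 257 and 253 CPM (-0.47 ± 0.06, adjusted p = 1.48e-05), Umps (-0.26 ± 0.06, adjusted p = 0.00274) and Tyms, at 56.4, 61.6 and 58.8 CPM (-0.22 ± 0.08, adjusted p = 0.0320). In each of the 5 the HT-DNA libraries lay above. They also lay above for Cad (-0.18 ± 0.08, adjusted p = 0.0615) and Dctd (-0.21 ± 0.10, adjusted p = 0.0867), which did not pass the test. Thus 7 of the 8 genes did not overlap between these groups, against 61.1% of all genes. The call for Tyms was lost without HT-DNA replicate 1 or 3 or HT-DNA+AOA+Asp replicate 1 or 3, with log2 fold changes of -0.22 to -0.16. An interaction between AOA+Asp and HT-DNA, added after the data were seen, called Dhodh (-0.51 ± 0.13, adjusted p = 0.0332) and Umps (-0.32 ± 0.09, adjusted p = 0.0399) against 6.25% of all genes and 3.01% lower, and each was lost in 10 of 12 fits that left out 1 library.

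The levels of each gene were ordered over the 6 groups. Umps ran from HT-DNA+AOA (504 CPM) through AOA (457 CPM), HT-DNA (401 CPM) and HT-DNA+AOA+Asp (335 CPM) to AOA+Asp (294 CPM) and Mock (281 CPM), with libraries overlapping only between the last pair. Uck2 ran from HT-DNA (355 CPM) through HT-DNA+AOA, AOA and Mock, whose neighbours overlapped, to HT-DNA+AOA+Asp (256 CPM) and AOA+Asp (230 CPM). For Tk1, HT-DNA and Mock (87.3 and 85.7 CPM) overlapped at the top, AOA+Asp and AOA (67.9 and 67.6 CPM) overlapped in the middle, and HT-DNA+AOA+Asp and HT-DNA+AOA (58.1 and 54.6 CPM) overlapped at the bottom, with no overlap between these levels. Dhodh was highest in HT-DNA (26.3 CPM), apart from the rest, and lowest in AOA+Asp and Mock (17.6 and 17.2 CPM), which overlapped. For Ctps2 all neighbouring groups overlapped, for Dctd all but HT-DNA+AOA+Asp and HT-DNA+AOA, and for Tyms all but Mock and AOA. Cad formed an upper range of AOA, HT-DNA and HT-DNA+AOA (515, 492 and 482 CPM) and a lower pair of AOA+Asp and Mock (395 and 393 CPM), with HT-DNA+AOA+Asp (434 CPM) apart in between.

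A further 47 genes of pyrimidine metabolism were counted beside the 8, of which 38 passed the filter. With AOA, 12 were higher and 10 lower than in Mock (45.7% of all genes were called), and the largest changes among genes at 1 CPM or more were in Nt5c2, a cytosolic nucleotidase, which fell from 39.5 to 16.0 CPM (log2 fold change -1.30 ± 0.13), in Slc25a33, a mitochondrial pyrimidine nucleotide carrier, which rose from 36.8 to 80.3 CPM (1.12 ± 0.09), and in Nme7, of the nucleoside diphosphate kinase family, which fell from 22.4 to 10.6 CPM (-1.09 ± 0.10). Slc25a33 and Nme7 were back at 38.2 and 22.9 CPM with AOA+Asp, where Nt5c2 was at 31.2 CPM. Tymp, which cleaves thymidine, was 1.04 lower on the log2 scale with AOA+Asp than with AOA (log2 fold change -1.04 ± 0.23, adjusted p = 0.00131). AOA+Asp against AOA called 9 of the 38 higher and 16 lower (46.3% of all genes).

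Against Mock, AOA+Asp called 4 of the 38, all lower (6.47% of all genes in either direction). Slc29a2, an equilibrative nucleoside transporter, was at 13.8 ± 0.92 CPM against 19.3 ± 1.97 CPM in Mock (SD, n = 3, log2 fold change -0.48 ± 0.12, adjusted p = 0.0160), and the others were Upp1, Rrm2 and, named after its values were seen, Entpd4, a nucleoside diphosphatase (-0.36 ± 0.10, adjusted p = 0.0461). The count of 4 was 1 to 3 in the fits that left out 1 library, 2 without Mock replicate 1 or 3 or AOA+Asp replicate 3, and 1 without Mock replicate 2 or AOA+Asp replicate 1. HT-DNA against Mock called 19 higher and 8 lower (48.2% of all genes). Slc29a2 rose to 37.7 ± 2.80 CPM (0.97 ± 0.11, adjusted p = 4.18e-06), and Uck1, the other uridine-cytidine kinase, rose by 0.70 ± 0.10 on the log2 scale (adjusted p = 2.70e-05).

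With AOA on top of HT-DNA, 11 of the 38 were higher and 10 lower than with HT-DNA alone (45.4% of all genes were called), and Rrm2b, the p53-inducible subunit of ribonucleotide reductase, rose from 9.27 ± 0.52 to 25.9 ± 8.73 CPM (SD, n = 3, log2 fold change 1.49 ± 0.17), its HT-DNA+AOA libraries spanning 19.1 to 35.8 CPM. Nme7 and Nt5c2 fell there by 1.21 and 1.10 on the log2 scale. Without HT-DNA, Rrm2b averaged 13.0 CPM in Mock, 24.2 CPM with AOA and 12.4 CPM with AOA+Asp. Aspartate added to HT-DNA+AOA called 6 of the 38 higher and 18 lower (47.7% of all genes). Among them were Nme7 (1.24 ± 0.11), Tymp (-1.21 ± 0.22) and Rrm2b (-1.17 ± 0.17). Against HT-DNA alone, 6 were higher and 15 lower with HT-DNA+AOA+Asp (46.6% of all genes were called), among them Slc29a2 (-1.17 ± 0.11), Nme4, a mitochondrial nucleoside diphosphate kinase (-0.91 ± 0.28), and Upp1 (-0.90 ± 0.13).

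HT-DNA called 5 of the 38 higher and none lower with AOA, and 4 higher and none lower with AOA and aspartate (13.4% and 3.45% of all genes). Slc29a3, a nucleoside transporter of lysosomes, led both, at 0.95 ± 0.11 and 0.83 ± 0.10 on the log2 scale, followed with AOA by Upp1 (0.43 ± 0.13) and the nucleotidase Nt5c3 (0.31 ± 0.08) and with aspartate by Slc25a33 (0.45 ± 0.09) and Ctps (0.28 ± 0.06). Cmpk1 (0.28 ± 0.09) with AOA, and Shmt1, a serine hydroxymethyltransferase (0.26 ± 0.07), with aspartate were also called, and were named after their values were seen. With AOA the count of 5 was 15 without HT-DNA+AOA replicate 1 and 1 without AOA replicate 1 or 2. The interaction of AOA with HT-DNA called 9 (15.5% of all genes), of which 2 were higher and 7 lower, with Slc29a2 (-0.76 ± 0.16), Slc29a3 (0.73 ± 0.15) and Uck1 (-0.55 ± 0.14) largest, and that count was 24 without HT-DNA+AOA replicate 3 and 4 or 5 without Mock replicate 1 or 2, AOA replicate 2, HT-DNA replicate 1 or 3 or HT-DNA+AOA replicate 2. The 9 genes not tested, Cmpk2, Dpyd, Nme3, Nt5e, Slc28a1, Slc28a2, Slc28a3, Upb1 and Upp2, had at most 10 counts in any library.

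**Figure D4:**
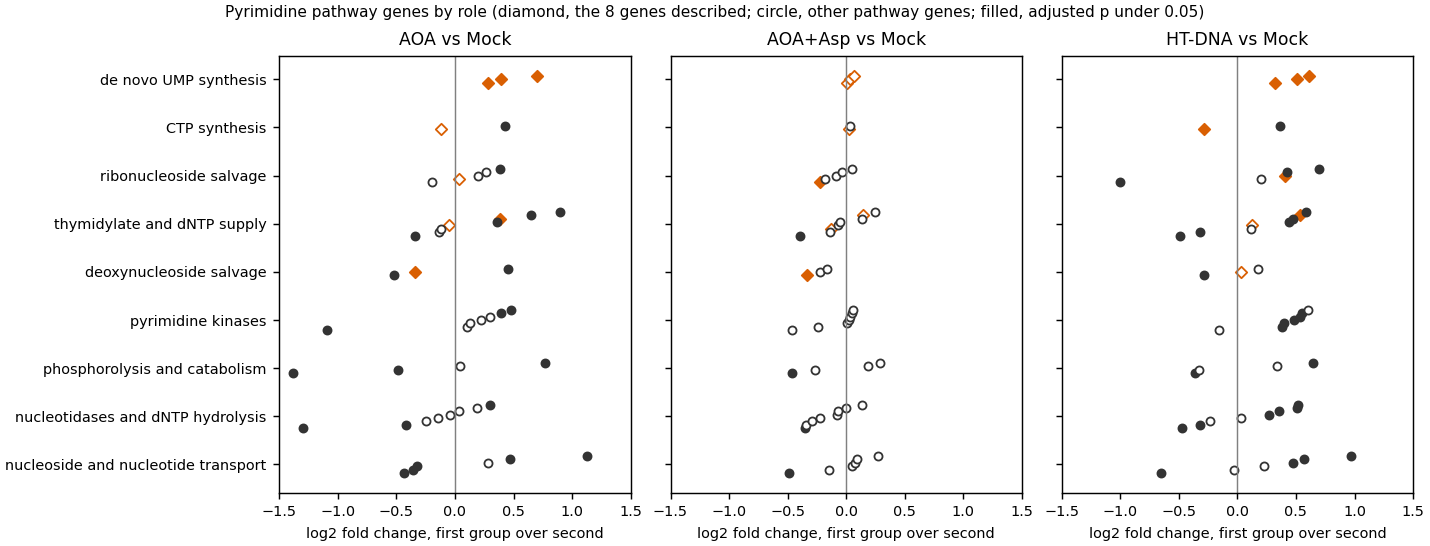
Log2 fold change against Mock (horizontal axis) of the tested pyrimidine genes, grouped by role (vertical axis), for AOA, AOA+Asp and HT-DNA. Diamonds are the 8 genes described, circles other pathway genes, and filled symbols have an adjusted p under 0.05. The 3 genes of UMP synthesis were higher with AOA and with HT-DNA and near 0 with AOA+Asp (0.01 to 0.06).

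The genes were also grouped by role, with the 8 genes included. Without HT-DNA, UMP synthesis was the role in which every gene moved the same way with AOA and with added aspartate. With AOA 3 of 3 were higher, and with AOA+Asp against AOA 3 of 3 were lower (22.4% and 22.8% of all genes). Both Dhodh calls among these were lost in 3 and 4 of 6 fits that left out 1 library. For HT-DNA+AOA against HT-DNA, 1 of the 3 was higher and 1 lower (22.8% and 22.7% of all genes). For HT-DNA+AOA+Asp against HT-DNA+AOA, 1 of the 3 was lower and none higher (23.9% of all genes were lower). Of 8 genes of thymidylate and dNTP supply, 4 were higher and 1 lower with AOA, of 3 deoxynucleoside salvage genes 1 was higher and 2 lower, and of 7 tested kinases 2 were higher and 1 lower, where 22.4% of all genes were higher and 23.3% lower. With HT-DNA alone, 5 of the 7 kinases were higher and none lower, and 3 of 5 ribonucleoside salvage genes were higher and 1 lower, where 24.2% of all genes were higher and 24% lower.

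Among 9918 genes averaging 5 CPM or more, those with profiles most like each of the 8 were found by the root mean square difference of mean log2 CPM over the 6 groups, after centring. The closest pair was Umps and Ybx3, a cold-shock domain protein (0.0127), followed by Dhodh and Ccdc124 (0.0208), Cad and Antkmt (0.0212) and Uck2 and Abhd17c (0.0234). Tyms was closest to Tdg, thymine DNA glycosylase (0.0253), Ctps2 to Cisd2 (0.0310), Dctd to Gne (0.0348) and Tk1 to Mief2 (0.0709). The next in line were Tmem11, Polr2i, Snx17, Prrc2a, Nrbp1, Chp1, Niban2 and Mef2d, respectively. No gene of the pyrimidine list was among them, and Tk1 had the least similar neighbours of the 8.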

How the data were processed

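L929 cells in 6 groups were profiled by bulk RNA-seq, and the authors deposited estimated counts per gene for 18 libraries, with group means that were not used. Aligner, counter, strand setting and genome build are not given in the sources used here. Counts (11.6% not whole) were rounded. Groups and replicates came from the labels. Genes kept by filterByExpr (minimum count 10, minimum total 15) numbered 14263 and were fitted with all 18 libraries by edgeR's quasi-likelihood test (edgeR 4.0.16, R 4.3.3, TMM, robust), with Benjamini-Hochberg adjustment over all of them and a threshold of 0.05. The SE of a log2 fold change was its absolute value divided by the square root of the F statistic of that test. A level is TMM-scaled CPM, and library totals of 17901546 to 24057284 set the precision.

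Members and gene lists were chosen with earlier results of these data known. Named genes were the 8 members, Ctps, Upp1, Cmpk2, Rrm2 and Uprt, the 3 called pathway genes with the largest change per comparison (at least 1 CPM) and the 2 closest profiles per member. Alternatives included DESeq2 1.42.0, other scalings and filters, and leaving out each library. On simulated counts for AOA against Mock (13954 genes, 200 changed), 24% of changes of 0.4 and 85% of changes of 1 (log2) were recovered, with 5 false among 114 calls. In the data 6516 of 14263 genes were called in that comparison, and the adjustment depends on how many genes change. The simulated shares therefore do not measure the sensitivity of the real fit. Exon lengths and shared 31-base words came from GENCODE vM21. A called pathway gene is not reported by name here.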

Additional observations from a re-analysis of the deposited data

Results flagged for a closer look

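The response to HT-DNA differed between cells without AOA and cells with AOA, by the interaction term of the edgeR fit, for 5 of the 8 genes. The interaction was -0.42 ± 0.11 (log2, SE) for Cad, -0.55 ± 0.13 for Dhodh, -0.37 ± 0.09 for Umps, -0.40 ± 0.08 for Uck2 and -0.77 ± 0.14 for Dctd, with adjusted p between 0.00191 and 0.0158. Dctd rose with HT-DNA without AOA (log2 fold change 0.54) and had a value of -0.23 with AOA (adjusted p = 0.141).

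The response to HT-DNA also differed between cells without AOA and cells with AOA and aspartate for Dhodh (-0.51 ± 0.13, adjusted p = 0.0332) and Umps (-0.32 ± 0.09, adjusted p = 0.0399), in a comparison chosen after seeing the data. The Dhodh and Umps calls in this comparison were each lost in 10 of 12 fits that left out 1 library. Both interactions use the same Mock and HT-DNA libraries. Groups of 3 are too small for a test of single outlying libraries.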

How the results depend on the processing

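Of 720 member values refitted with 1 library left out, 50 lost and 7 gained a call. Of 768 under the other alternatives, 719 kept their side of the threshold (26 of them, with a size of at most 0.18 and no call, changed sign), 16 lost a call and 32 gained one, and 1 reversed and gained a call, Cad for HT-DNA+AOA against HT-DNA (0.25 with the GC and length correction, chosen after seeing the data). The causes were not tested. Counts of called members, from lowest to highest with 1 library left out, were 0 to 2 for AOA+Asp against Mock, 3 to 5 for AOA+Asp against AOA, 0 to 2 for HT-DNA+AOA against AOA, 1 to 4 for HT-DNA+AOA+Asp against HT-DNA+AOA and 0 to 2 for the interaction of AOA+Asp with HT-DNA. Counts of called pathway genes were 1 to 3, 4 to 24, 0 to 4, 1 to 15 and 2 to 4 for AOA+Asp against Mock, the interaction of AOA with HT-DNA, that of AOA+Asp with HT-DNA, HT-DNA+AOA against AOA and HT-DNA+AOA+Asp against AOA+Asp.

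With library totals, the members called were 3 for HT-DNA+AOA+Asp against HT-DNA+AOA and 1 for the interaction of AOA+Asp with HT-DNA. With no filter on low counts they were 3 for AOA+Asp against AOA, 1 for AOA+Asp against Mock and 1 for the interaction of AOA+Asp, where 9 pathway genes were called. With only the libraries of the groups compared they were 0 for HT-DNA+AOA against AOA, 3 for HT-DNA+AOA+Asp against AOA+Asp and 5 for the interaction of AOA+Asp, and the pathway genes called were 11 for AOA+Asp against Mock, 13 for HT-DNA+AOA+Asp against HT-DNA+AOA, 1 for HT-DNA+AOA against AOA, 7 for HT-DNA+AOA+Asp against AOA+Asp, 4 for the interaction of AOA and 19 for that of AOA+Asp. DESeq2 called 2 members for HT-DNA+AOA against AOA, 2 for HT-DNA+AOA+Asp against AOA+Asp and 10 pathway genes for the interaction of AOA+Asp. The GC and length correction gave 6 members for HT-DNA+AOA+Asp against HT-DNA+AOA and 3 for HT-DNA+AOA+Asp against AOA+Asp, and 7, 12 and 8 pathway genes for AOA+Asp against Mock, HT-DNA+AOA against AOA and the interaction of AOA+Asp.

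The replicate numbers did not pair the libraries over all groups: of 45 correlations between same-numbered libraries, 14 were over 0.1 and 12 under -0.1. Of 18 libraries, 8 were closest to their own number. Among Mock, AOA and HT-DNA+AOA, however, the correlations were 0.231 to 0.521 for numbers 1 and 3, and -0.097 to 0.055 for number 2. With a replicate block, 2 pathway genes in place of 4 were called for AOA+Asp against Mock, and Tk1 gained a call in the interaction of AOA with HT-DNA (-0.34).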
